A study of Mus musculus with 69 samples.

Results

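The enzymes that build long-chain fatty acids and modify them by desaturation and elongation were followed at the transcript level in murine vascular cells exposed to metabolic and humoral stressors. The group consisted of 10 genes, Fasn, Acaca, Scd1, Scd2, Fads1, Fads2, Fads3, Elovl1, Elovl5 and Elovl6, out of 56953 genes in the count tables. They were selected by name for their place in the pathway and not by a measured value. All 10 were expressed above the low-count filter in each cell type and entered every test.

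Acetyl-CoA carboxylase (Acaca) supplies malonyl-CoA, and fatty acid synthase (Fasn) uses it to assemble palmitate. Stearoyl-CoA desaturases (Scd1, Scd2) place the double bond that turns saturated into monounsaturated fatty acids, whereas Fads2 and Fads1 act one after the other on the way to long polyunsaturated fatty acids, and elongases of the Elovl family lengthen the chain. In many tissues transcription of these genes is driven by SREBP-1, the product of Srebf1, and is known to respond to the supply of fatty acids.

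Primary cells from male C57BL/6 mice were kept without serum and then incubated for 24 h. The metabolic stressors (HG + FFA) were 20 mM glucose and free fatty acids at 100 µM, which the study's methods describe as oleate and palmitate at that concentration each. The humoral stressors (AII + NA) were 30 nM angiotensin II and 300 nM of a catecholamine that is named epinephrine in the labels and norepinephrine in the study's methods. ALL stressors combined both, and Control cells received none of them. The albumin that carries fatty acids was present in all solutions, those of the Control cells included. WT VSMC were aortic vascular smooth muscle cells, sets 1 to 4, with 4 libraries per condition. KO VSMC were aortic cells of mice with a smooth muscle-specific knock-out of Egfr, made with floxed Egfr and a Cre recombinase driven by the SM22 promoter, sets 5 to 8. They had 4 libraries per condition, apart from ALL, with 3. EC were endothelial cells from the heart, labelled WT, sets 9 to 18, with 9 libraries each for Control and AII + NA and 10 each for HG + FFA and ALL. A set is a group of cultures of the same origin, treated in parallel. The 18 sets came from 13 animals by the labels, and EC sets 17 and 18 shared an animal, as did some EC and VSMC sets. EC sets 15 and 16, labelled WT like the others, carried the animal labels of KO VSMC sets 7 and 6. All VSMC libraries carried one batch label and all EC libraries another, so batch, tissue and cell type cannot be told apart in a comparison of levels.

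The libraries held between 17166133 and 43240489 counts on genes. Mean Egfr per set was 246 to 430 FPM (fragments per 1000000 counted fragments, on a TMM-scaled library size) in WT VSMC, 36.5 FPM in KO VSMC set 5 and 0.96 to 1.84 FPM in KO VSMC sets 6 to 8. Set 5 also stood apart by Myh11, a contractile smooth muscle gene, at 238.9 FPM against 2.75 to 10.8 FPM in the other VSMC sets. Of the other smooth muscle markers, Acta2 had set means of 599 to 2390 FPM, Myl9 66.7 to 530 FPM and Tagln 2.58 to 10.6 FPM in the VSMC sets. Since 66.7% of the exonic bases of Tagln overlap other genes, its counts may not reflect its level. Pecam1, an endothelial marker, was 18.1 to 42.4 FPM in EC sets 9, 11 and 13 and at least 259.6 FPM in the other EC sets. Of the other endothelial markers, Cdh5 had EC set means of 8.73 to 903 FPM and Kdr 0.298 to 27.9 FPM. Cldn5 was at most 0.66 FPM in any EC set mean. The smooth muscle marker Acta2 was also present in EC, with set means of 166 to 3190 FPM. The fibroblast gene Col1a1 was abundant throughout, with set means of 971 to 5960 FPM in the VSMC sets and 30.6 to 5800 FPM in EC. Of 5 adipocyte genes, Adipoq, Plin1, Cidec and Lep stayed under 0.4 FPM in every set mean, and the list summed to at most 11.4 FPM in any library. In bulk RNA, a change in the number of cells of a type and a change in RNA per cell cannot be told apart.

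On the mouse genome (GRCm39), the Fads genes lie next to each other on chromosome 19, Fads3 at chr19:10018253-10037928 (plus strand), Fads2 at chr19:10038130-10079203 (minus strand) and Fads1 at chr19:10160167-10174241 (plus strand). Scd2 (chr19:44281613-44295303, plus strand) and Scd1 (chr19:44382894-44399154, minus strand) lie farther along the same chromosome. Fasn (chr11:120696672-120715995, minus strand) and Acaca (chr11:84020476-84292477, plus strand) share chromosome 11. Elovl1 is at chr4:118284346-118290150, Elovl5 at chr9:77818113-77891802 and Elovl6 at chr3:129326004-129432144, all on the plus strand.

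Promoter sequences from RefSeq (GRCm39) were found for 7 of the 10 genes. The 250 bases before the annotated start of Fads2 and Fads3, neighbours of which Fads2 is transcribed from the minus strand, are shown because both belong to the group that rose, together with those of Fasn, which was called in no comparison with Control. They read 5′ to 3′ on the strand of the gene, with motif matches on either strand in capitals: CCAAT and the GC box GGGCGG, which appear as their reverse complement where they lie on the other strand.
Fads2, chr19:10078868-10079117, minus strand: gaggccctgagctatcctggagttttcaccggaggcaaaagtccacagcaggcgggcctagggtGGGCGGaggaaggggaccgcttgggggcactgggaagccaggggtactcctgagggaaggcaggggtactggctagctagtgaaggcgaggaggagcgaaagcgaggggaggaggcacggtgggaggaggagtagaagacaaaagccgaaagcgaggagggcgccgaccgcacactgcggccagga
Fads3, chr19:10018662-10018911, plus strand: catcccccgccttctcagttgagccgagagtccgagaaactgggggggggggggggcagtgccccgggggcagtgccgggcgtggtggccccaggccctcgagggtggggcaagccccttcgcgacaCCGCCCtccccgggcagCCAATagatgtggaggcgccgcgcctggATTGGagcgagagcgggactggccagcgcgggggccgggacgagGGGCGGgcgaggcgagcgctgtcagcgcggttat
Fasn, chr11:120715374-120715623, minus strand: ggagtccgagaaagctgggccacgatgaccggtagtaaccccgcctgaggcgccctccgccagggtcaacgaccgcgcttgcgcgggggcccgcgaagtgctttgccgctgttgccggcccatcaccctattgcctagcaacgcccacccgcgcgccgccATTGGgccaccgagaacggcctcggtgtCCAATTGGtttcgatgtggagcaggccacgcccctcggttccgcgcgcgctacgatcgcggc
The Fads2 window held 1 GC box, 186 bases before the start. The Fads3 window held a CCAAT match at 106 and another at 78 bases before the start and a GC box at 123 and at 34 bases. The Fasn window held 3 CCAAT matches, of which those at 62 and 59 bases overlap. Of 32851 mouse promoter windows of this length, 33.8% held a CCAAT match and 32.7% a GC box, so that such a match is common. The E-box CACGTG, held by 6.02% of all windows, had no match in these 3 windows.

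With ALL stressors, the stearoyl-CoA desaturase Scd2 fell (log2FC -0.82 to -0.58) and the desaturase Fads1 rose (0.31 to 0.48) in WT VSMC, KO VSMC and EC, whereas Fasn and the elongases Elovl1 and Elovl5 were called in no stressor comparison. Differential expression was tested with edgeR (quasi-likelihood test with the set as a block), and a gene was called at a Benjamini-Hochberg FDR under 0.05 over all genes tested. With HG + FFA alone, 0 of the 10 genes were called in WT VSMC, against 0.538% of all genes tested. At an unadjusted p under 0.05 there were 5 (11.2% of all genes), and DESeq2 called 1, Scd2. In KO VSMC 2 genes rose and 1 fell (0.439% of all genes were called), and in EC 1 gene fell (3.53% of all genes). With ALL stressors, 2 genes rose and 1 fell in WT VSMC (7.45% of all genes), 1 rose and 1 fell in KO VSMC (0.399%), and 1 rose and 2 fell in EC (3.18%). The median log2FC over the 10 genes lay between -0.03 and 0.21 in these 6 comparisons, and that over all genes between -0.01 and 0.00. All of these calls depended on the set as a block, and without it 0 of the 10 genes were called in each of the 6 comparisons.

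AII + NA alone left the group without a call in edgeR and in DESeq2. In WT VSMC, KO VSMC and EC 0 of 10 genes were called, against 0.0532%, 0% and 0% of all genes, and 0 of 10 reached an unadjusted p under 0.05 in any of the 3 (9.42%, 9.76% and 6.67% of all genes). The log2FC values ranged from -0.18 for Scd2 in WT VSMC to 0.26 for Elovl6 in EC. The 95% intervals of Scd2 were -0.46 to 0.10 in WT VSMC, -0.04 to 0.42 in the knock-out cells and -0.35 to 0.26 in EC. The comparisons with Control share the Control libraries.

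**Figure D1:**
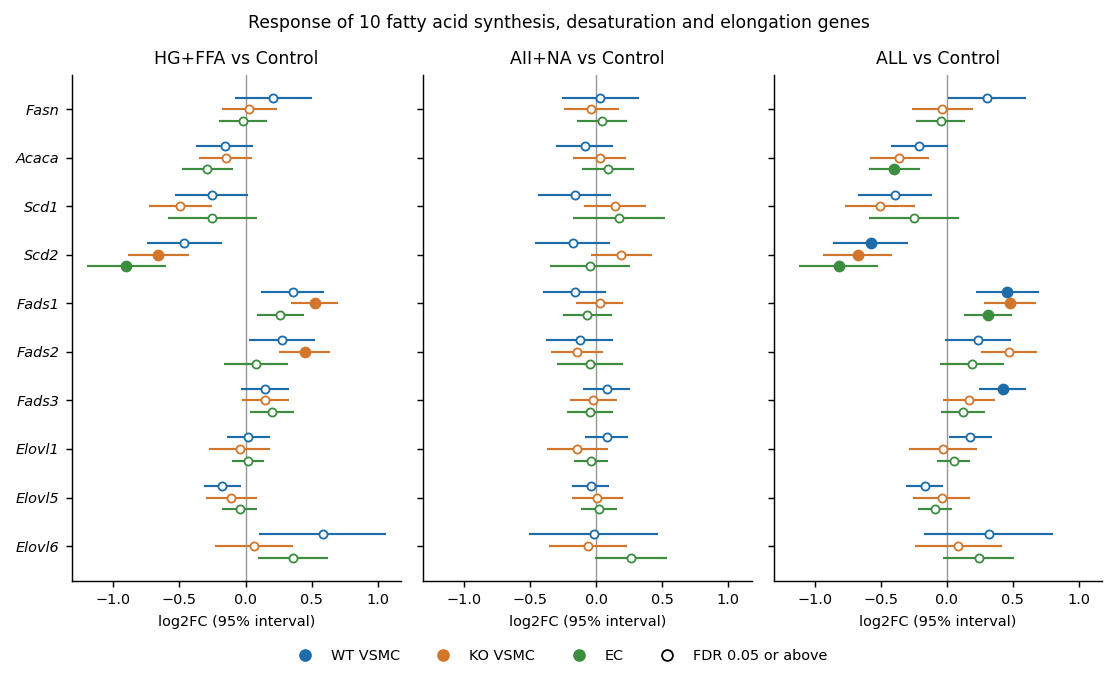
log2FC against Control (x axis, with 95% intervals) of the 10 genes (y axis) for HG + FFA, AII + NA and ALL in WT VSMC, KO VSMC and EC; filled circles mark an edgeR FDR under 0.05. Scd2 lies left of 0 and Fads1 right of 0 in all 3 cell types with HG + FFA and with ALL, and no circle is filled for AII + NA.

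Scd2, the stearoyl-CoA desaturase widely expressed outside the liver, was the member with the largest absolute log2FC in KO VSMC and EC with HG + FFA and with ALL. In WT VSMC it was at 413, 312, 254 and 359 FPM in the Control libraries of sets 1 to 4 and at 316, 230, 246 and 187 FPM with HG + FFA. The values with ALL were 350, 219, 207 and 148 FPM, against 373, 285, 244 and 280 FPM with AII + NA. Each set was lower with HG + FFA than in its own Control, by very little in set 3 and most in set 4, and the groups overlapped. The log2FC was -0.46 (SE 0.13, FDR 0.157) for HG + FFA and -0.58 (SE 0.13, FDR 0.016) for ALL, a change with ALL of -32.9%. The call with ALL was lost without set 2 and without set 4 (highest FDR 0.0839).

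In KO VSMC Scd2 was at 294, 343, 260 and 152 FPM in the Control libraries of sets 5 to 8 and at 164, 191, 158 and 130 FPM with HG + FFA. With AII + NA it was at 273, 370, 307 and 220 FPM, and with ALL at 228, 146 and 112 FPM in sets 6 to 8. The HG + FFA and ALL groups each overlapped the Control group, and ALL also overlapped AII + NA. The AII + NA and HG + FFA groups did not overlap, and set 8 was the lowest in all 4 conditions. The log2FC was -0.66 (SE 0.11, FDR 0.0138) for HG + FFA and -0.68 (SE 0.12, FDR 0.0247) for ALL. Both calls were kept without set 5, the set with remaining Egfr counts and high Myh11, and both were lost without set 6 and without set 7 (highest FDR 0.293 and 0.681).

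In EC the lowest, median and highest Scd2 values were 242, 399 and 661 FPM in Control, 85.3, 226 and 443 FPM with HG + FFA, 298, 371 and 622 FPM with AII + NA and 108, 225 and 431 FPM with ALL. Set 17 was the highest in each condition, and set 14 had the largest difference, from 417 FPM in Control to 85.3 FPM with HG + FFA. The log2FC was -0.90 (SE 0.15, FDR 0.000245) for HG + FFA and -0.82 (SE 0.15, FDR 0.000899) for ALL, corresponding to -46.5% and -43.4%. Both were called in all 10 fits that left out a set, with the animal as the block in place of the set (FDR 0.0111 and 0.0244) and without the 3 sets of low Pecam1 (-0.99, FDR 0.00456, and -0.97, FDR 0.00604).

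Over the 17 sets that held both libraries, Scd2 was lower with HG + FFA than in Control in 17, a pattern shared by 0.264% of 15880 genes. Over the 16 sets with ALL and AII + NA libraries, which share no library with the former comparison, it was lower with ALL in 16 (0.327% of genes were lower in all). Between AII + NA and Control it was higher in 6 and lower in 10 of 16 sets.

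Scd1, the isoform best known from liver and adipose tissue, was less abundant per length than Scd2 in untreated cells of each type, at 9.30 against 44.4 FPM per kilobase of exon in WT VSMC. In KO VSMC it was at 61.7, 105, 67.1 and 36.2 FPM in Control, 40.9, 67.3, 44.9 and 33.1 FPM with HG + FFA and 57.7, 95, 82.4 and 52 FPM with AII + NA. Sets 6 to 8 had 75.7, 44.7 and 28.7 FPM with ALL. The groups overlapped, but each set was lower with HG + FFA than in Control and lower with ALL than with AII + NA. The log2FC of ALL against AII + NA was -0.65 (SE 0.12, FDR 0.0312), lost without set 6, 7 or 8 (highest FDR 0.689), and that of HG + FFA against Control -0.49 (SE 0.11, FDR 0.0756).

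Scd1 in WT VSMC was at 64.4, 87.1, 50.1 and 66.4 FPM in Control and at 58.3, 56.9, 54.5 and 34.1 FPM with ALL, with a log2FC of -0.39 (SE 0.13, FDR 0.0829). In EC the spread between sets was wide. Lowest, median and highest were 14, 69.3 and 107 FPM in Control, 18.1, 70.7 and 107 FPM with HG + FFA and 20.7, 64.7 and 106 FPM with ALL. Set 11 was the lowest in all conditions, and the log2FC of -0.25 for HG + FFA had an interval from -0.59 to 0.09. Scd1 and Scd2 share sequence, with 145 of 7429 windows of 50 bases in the Scd1 exons (1.95%) also found in those of Scd2, and the authors counted reads that map to several places, so a small part of the counts of either gene can stem from the other.

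**Figure D2:**
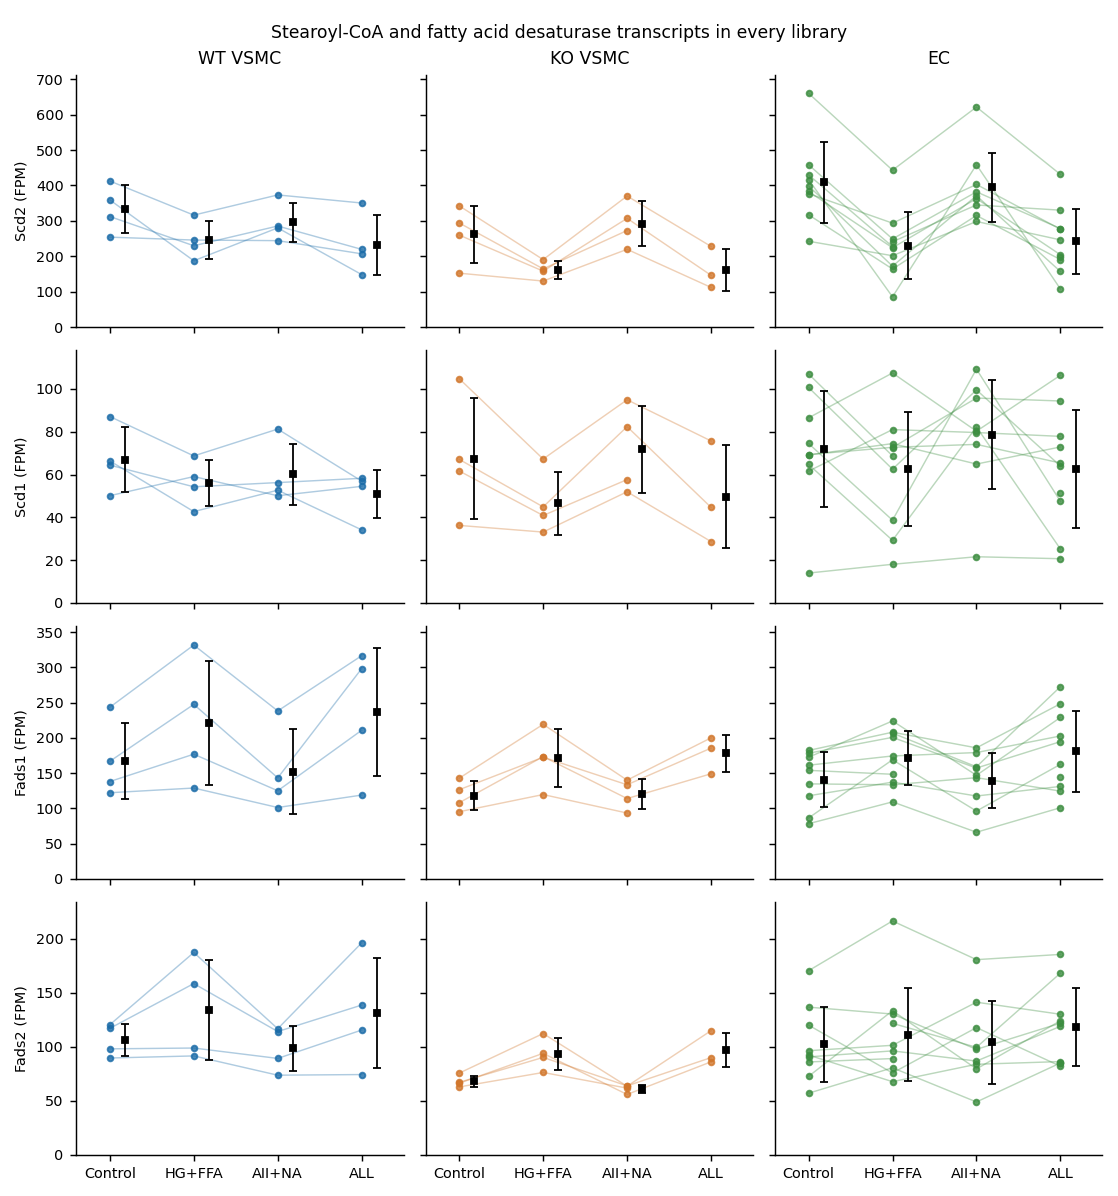
Scd2, Scd1, Fads1 and Fads2 (rows, y axes in FPM from 0) in every library of WT VSMC, KO VSMC and EC (columns) by condition; lines join the libraries of a set, and black squares with bars give the mean ± SD. Scd2 is lower with HG + FFA than in Control in every set with both libraries, by little in WT VSMC set 3, and lower with ALL in all but 1 EC set, and Fads1 is higher in most sets.

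Fads1 encodes the desaturase that forms arachidonic acid. In WT VSMC it was at 167, 138, 243 and 122 FPM in the Control libraries, 248, 177, 332 and 129 FPM with HG + FFA, 143, 125, 238 and 101 FPM with AII + NA and 298, 211, 317 and 119 FPM with ALL. Set 4 was the lowest in each condition and moved little, from 122 to 119 FPM with ALL, and the groups overlapped. The log2FC was 0.36 (SE 0.11, FDR 0.208) for HG + FFA, 0.46 (SE 0.11, FDR 0.0215) for ALL and 0.62 (SE 0.11, FDR 0.0127) for ALL against AII + NA. In this last comparison Fads1 was the single member called, against 1.36% of all genes. Both calls were lost without set 1, 2 or 3 (highest FDR 0.113 with ALL and 0.0962 against AII + NA) and kept without set 4.

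In KO VSMC Fads1 was at 95.2, 126, 143 and 108 FPM in Control and 120, 173, 219 and 173 FPM with HG + FFA, higher in each set, though the groups overlapped. With AII + NA it was at 93.4, 133, 140 and 114 FPM and with ALL at 185, 200 and 149 FPM in sets 6 to 8, above the highest AII + NA library. The log2FC was 0.52 (SE 0.08, FDR 0.0115) for HG + FFA and 0.48 (SE 0.09, FDR 0.0328) for ALL, and both calls were lost without set 6, 7 or 8 (highest FDR 0.293 and 0.675). In EC the lowest, median and highest values were 78.2, 154 and 182 FPM in Control, 109, 172 and 224 FPM with HG + FFA, 66.1, 147 and 186 FPM with AII + NA and 101, 179 and 273 FPM with ALL. The groups overlapped, and the log2FC was 0.26 (SE 0.09, FDR 0.0961) for HG + FFA and 0.31 (SE 0.09, FDR 0.0477) for ALL. The latter was called in 2 of the 10 fits that left out a set and not without the 3 sets of low Pecam1 (FDR 0.249) or with the animal as the block (FDR 0.457). Over all cell types Fads1 was higher with HG + FFA than in Control in 15 of 17 sets, and higher with ALL than with AII + NA in 15 of 16 sets.

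Fads2, the desaturase upstream of Fads1, rose in KO VSMC with HG + FFA. It was at 62.8, 67, 75.6 and 66.2 FPM in Control and at 76.2, 90.1, 112 and 93.9 FPM with HG + FFA. AII + NA libraries held 61.7, 63.8, 63.4 and 55.8 FPM, and ALL libraries 89.9, 115 and 86 FPM in sets 6 to 8. The lowest HG + FFA library was just above the highest Control library, and the ALL and AII + NA groups were well apart. The log2FC was 0.45 (SE 0.09, FDR 0.0422) for HG + FFA and 0.61 (SE 0.10, FDR 0.0123) for ALL against AII + NA, and ALL against Control, with 0.47 (SE 0.10, FDR 0.0587), was not called. Both calls were lost without set 6, 7 or 8 (highest FDR 0.557 and 0.522).

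In WT VSMC, Fads2 went from 120, 98, 117 and 89.6 FPM in Control to 187, 98.8, 158 and 91.5 FPM with HG + FFA, so that sets 1 and 3 were higher and sets 2 and 4 about level. The log2FC of 0.28 (SE 0.12) was not called (FDR 0.382). In EC the medians were 92.3 FPM in Control and 98.7 FPM with HG + FFA, with a range from 67.6 to 216 FPM in the latter, and the log2FC of 0.08 had an interval from -0.16 to 0.33.

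Fads3, known for the desaturation of sphingoid bases, was called in WT VSMC with ALL. It was at 133, 107, 122 and 106 FPM in Control, 162, 102, 155 and 107 FPM with HG + FFA, 141, 98.3, 134 and 120 FPM with AII + NA and 191, 145, 161 and 131 FPM with ALL. All 4 sets were higher with ALL than in their Control, and one ALL library, that of set 4, lay within the Control range. The log2FC was 0.42 (SE 0.08, FDR 0.00693), and it was called in each of the 4 fits that left out a set. In KO VSMC the log2FC for ALL was 0.17 (SE 0.09, FDR 0.543) and in EC 0.12 (SE 0.08, FDR 0.493). In the Ensembl annotation, 23.5% of the exonic bases of Fads3 and 15.8% of those of Fads1 overlap other genes, all on the opposite strand. The strand setting of the counting was not given in the sources used here. Reads in these bases may therefore have been left out of the counts or may stem from the other genes, and the levels of Fads3 and Fads1 can be affected either way.

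Acaca fell in EC. The lowest, median and highest values were 34.2, 42.6 and 63.8 FPM in Control, 27, 38.5 and 55.5 FPM with HG + FFA, 33.5, 47 and 65.4 FPM with AII + NA and 23, 38.6 and 52.3 FPM with ALL. The groups overlapped. Within sets, Acaca was lower with ALL than with AII + NA in 14 of 16 sets over all cell types and lower with HG + FFA than in Control in 14 of 17. The log2FC in EC was -0.40 (SE 0.10, FDR 0.0142) for ALL and -0.49 (SE 0.10, FDR 0.00175) for ALL against AII + NA, whereas that for HG + FFA was -0.29 (SE 0.10, FDR 0.0868). The call for ALL was lost without set 12 and without set 18, with a highest FDR of 0.0508, and without the 3 sets of low Pecam1 (-0.44, FDR 0.0637). With the animal as the block, Acaca was not called for ALL (FDR 0.261) or for ALL against AII + NA (FDR 0.124). In WT VSMC Acaca was at 36.1, 48.2, 41.3 and 56.3 FPM in Control and 40.6, 37.7, 35.8 and 40.1 FPM with ALL, and in KO VSMC at 53.6, 52.6, 45.4 and 42.3 FPM in Control and 43.9, 36.2 and 31.9 FPM with ALL in sets 6 to 8. Neither difference was called (FDR 0.245 and 0.2).

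Fasn was not called in any stressor comparison per cell type. In WT VSMC it was at 96.5, 114, 95.2 and 127 FPM in Control and 178, 132, 124 and 99.6 FPM with ALL, so that set 1 was higher, set 4 lower and the log2FC 0.30 (SE 0.14, FDR 0.214). This value was 0.09 without set 1 and 0.51 without set 4, where Fasn was called (FDR 0.0469), as it was with no count filter (FDR 0.0238). In KO VSMC it was at 107, 185, 153 and 92 FPM in Control and 93.9, 186, 154 and 112 FPM with HG + FFA, with the sets in nearly the same order. In EC the medians were 172 FPM in Control, 183 FPM with HG + FFA, 177 FPM with AII + NA and 175 FPM with ALL. The intervals of the log2FC with ALL were -0.27 to 0.19 in KO VSMC and -0.23 to 0.13 in EC.

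The elongases were not called in any of these comparisons. Elovl6, which extends palmitate to stearate, was the least abundant member. In WT VSMC it was at 5.59, 12.9, 5.55 and 9.98 FPM in Control and 11.4, 14.3, 11.1 and 11.5 FPM with HG + FFA, higher in each set, with overlapping groups and a log2FC of 0.58 (SE 0.23, FDR 0.324). In EC its log2FC for HG + FFA was 0.36 (SE 0.13, FDR 0.122). The median was 8.96 FPM in 9 Control libraries and 18.3 FPM in 10 with HG + FFA, but the means were 14.6 and 19.7 FPM. Within EC sets Elovl6 was higher with HG + FFA in 8 of 9, with a median log2 ratio of 0.178. Elovl5, the elongase of polyunsaturated chains, had log2FC values between -0.17 and -0.04 for HG + FFA in the 3 cell types. Elovl1, which acts on saturated very long chains, had values between -0.05 and 0.02.

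For a comparison of HG + FFA given without and with the hormones, ALL was set against AII + NA, which shares no library with HG + FFA against Control. In KO VSMC 2 members rose and 2 fell (0.399% of all genes were called), and in EC 1 rose and 2 fell (3.22%). Scd2 had a log2FC of -0.40 (SE 0.13, FDR 0.166) in WT VSMC, -0.86 (SE 0.12, FDR 0.00441) in KO VSMC and -0.77 (SE 0.15, FDR 0.00139) in EC. Fads1 had 0.62, 0.45 (SE 0.09, FDR 0.0437) and 0.38 (SE 0.09, FDR 0.0112) in the same order. The EC call of Fads1 was lost without the 3 sets of low Pecam1 (FDR 0.0687) and with the animal as the block (FDR 0.317), and the KO VSMC calls of Scd2 and Fads1 were lost without set 6 or 7, that of Fads1 also without set 8 (highest FDR 0.3 and 0.706). Between ALL and HG + FFA, 0 of 10 members were called in WT VSMC (0.0414% of all genes), KO VSMC (0%) and EC (0%), and at an unadjusted p under 0.05 there was 1, Fads3 in WT VSMC, with a log2FC of 0.27 (95% interval 0.09 to 0.45), beside 10.8%, 2.91% and 5.14% of all genes. The departure of ALL from the sum of both single effects was called for 0 of 10 members and 0% of all genes in each cell type. At an unadjusted p under 0.05 it held 1 member, Elovl6 in EC, at -0.39 (95% interval -0.76 to -0.01), beside 1.72%, 6.59% and 8.42% of all genes in the 3 cell types. DESeq2 gave no call for a member in these tests.

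**Figure D3:**
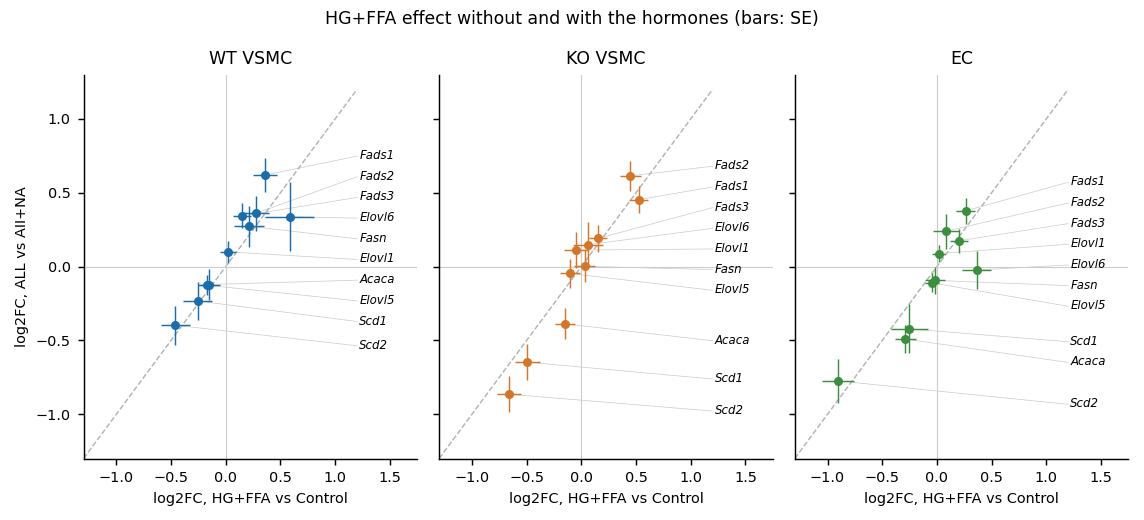
log2FC of HG + FFA against Control (x axis) and of ALL against AII + NA (y axis) for the 10 genes in WT VSMC, KO VSMC and EC; bars are SE and the dashed line marks equal values. Scd2 is at the lower left and Fads1 at the upper right in each panel; the axes share no library.

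Whether the effects differed between cell types was tested with an interaction term. None of the 10 members was called for a difference between WT VSMC and KO VSMC with HG + FFA, AII + NA or ALL (0%, 0% and 0.0109% of all genes), nor for one between EC and WT VSMC (0%, 0.0465% and 0.511%). At an unadjusted p under 0.05 there was 1 for WT VSMC against KO VSMC, Fads3 with ALL, with a difference of 0.26 (95% interval 0.00 to 0.51, FDR 0.661), where 3.08%, 11.9% and 7.42% of all genes passed for the 3 treatments. For EC against WT VSMC there were 2 (2.05%, 6.5% and 6.48% of all genes), both with ALL: Fasn at -0.34 (95% interval -0.68 to -0.00, FDR 0.763) and Fads3 at -0.29 (95% interval -0.57 to -0.01, FDR 0.737). The difference in the Scd2 response to HG + FFA was 0.20 (95% interval -0.17 to 0.57) between WT VSMC and KO VSMC and -0.44 (95% interval -0.94 to 0.06) between EC and WT VSMC. A call in one cell type and not in another is therefore no sign that the responses differed.

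The mean effect over the 3 cell types was also fitted in a model of all 69 libraries, a step chosen after the effects per cell type had been seen. The lack of a called difference does not show that the cell types responded alike, and KO VSMC and EC were not tested against each other. With HG + FFA, Fads1, Fads2 and Elovl6 rose and Scd2 fell (6.59% of all genes were called). The log2FC was 0.38 (SE 0.06, FDR 5.78e-05) for Fads1, 0.27 (SE 0.08, FDR 0.0412) for Fads2, 0.34 (SE 0.11, FDR 0.0436) for Elovl6 and -0.68 (SE 0.10, FDR 7.27e-06) for Scd2. With ALL, Fads1, Fads2 and Fads3 rose and Acaca, Scd1 and Scd2 fell (7.76% of all genes), by 0.41, 0.30, 0.24, -0.32, -0.39 and -0.69 on the log2 scale, and the same 6 were called for ALL against AII + NA (4.91% of all genes). With AII + NA, 0 of 10 members were called (0.329% of all genes), 0 of 10 at an unadjusted p under 0.05 (7.36%). All of these mean effects stayed under the 0.64 limit of the study's DEG rule other than those of Scd2.

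In untreated cells the order of the levels per length (FPM per kilobase of exon) was similar in the 3 cell types. In WT VSMC Scd2 was highest, at 44.4 ± 9.0 (SD, n = 4), followed by Fads1 at 29.9 ± 9.6, Fads3 at 25.8 ± 2.9, Fads2 at 16.3 ± 2.3, Elovl1 at 15.9 ± 1.6, Scd1 at 9.30 ± 2.1, Fasn at 9.25 ± 1.3, Elovl5 at 7.99 ± 1.4, Acaca at 2.47 ± 0.48 and Elovl6 at 1.0 ± 0.42. Fads1 and Fads3, Fads2 and Elovl1, and Scd1, Fasn and Elovl5 lay within an SD of their neighbours. In KO VSMC the means were 34.8 for Scd2, 24.3 for Fads3 and 21.1 for Fads1, and in EC 54.4, 36.5 and 25.1. Acaca and Elovl6 were the lowest in each cell type. With the longest transcript as length in place of all exons, 13 of the 30 ranks moved.

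Of the 10 members, 1 was called between Control libraries of EC and WT VSMC, against 15% of all genes. The 2 groups also differ in tissue and batch label. Fasn was higher in EC by a log2FC of 0.75 (SE 0.22, FDR 0.0288), and this call was lost without any one of the WT VSMC sets (highest FDR 0.0977). Elovl5 had a log2FC of 0.77 (SE 0.28, FDR 0.0686). Without the 3 EC sets of low Pecam1, Elovl5 (1.01, FDR 0.00431) and Elovl6 (1.11, FDR 0.0489) were called beside Fasn. Between KO VSMC and WT VSMC 0 of 10 members were called (0% of all genes). At an unadjusted p under 0.05 there was 1 (5.63% of all genes), Fads2, with a log2FC of -0.65 (95% interval -1.2 to -0.10, FDR 0.814).

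**Figure D4:**
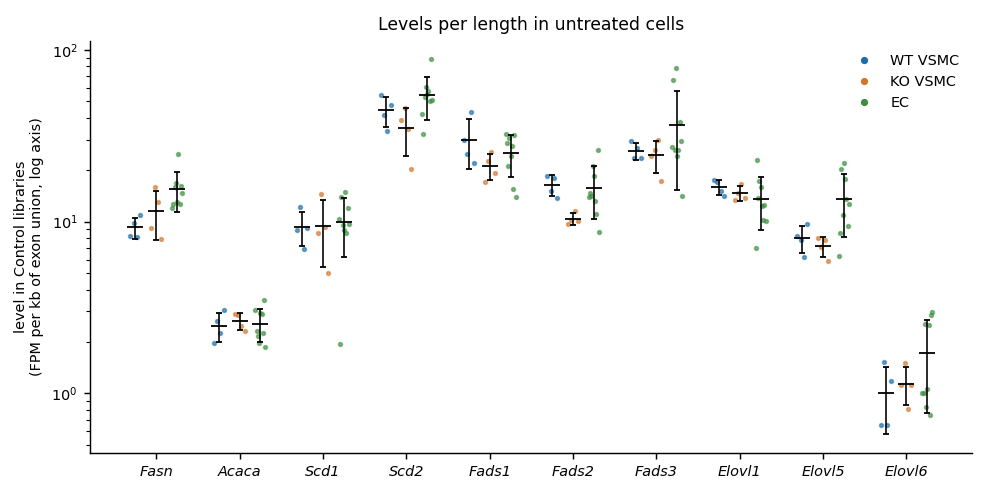
Level per length in Control libraries (y axis, FPM per kb of exon union, log axis) of the 10 genes in WT VSMC, KO VSMC and EC; points are libraries, and black marks are the mean ± SD. Scd2 is the highest and Elovl6 the lowest gene in each cell type.

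The genes that work beside the members were covered by a list of 36, of which 30 or 31 passed the filter. They comprised the enzymes that supply acetyl-CoA and NADPH, the other subunits of the elongation cycle, the electron donors of the desaturases, further Scd and Elovl isoforms and the SREBP, LXR and ChREBP regulators. With HG + FFA, 0 rose and 1 fell in WT VSMC (0.538% of all genes were called), 0 were called in KO VSMC (0.439%), and 3 rose and 2 fell in EC (3.53%). In KO VSMC 9 of 31 had an unadjusted p under 0.05, against 12.4% of all genes. With AII + NA 0 were called in each cell type. With ALL, 7 rose and 3 fell in WT VSMC (7.45% of all genes), 0 were called in KO VSMC (0.399%), and 5 rose and 2 fell in EC (3.18%). In KO VSMC 11 of 31 had an unadjusted p under 0.05, against 10.5% of all genes. The list medians stayed between -0.05 and 0.18 on the log2 scale.

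Mid1ip1, which promotes the polymerisation and activity of acetyl-CoA carboxylase, fell in EC with HG + FFA (log2FC -0.57, FDR 0.00236) and with ALL (-0.64, FDR 0.000697), and in WT VSMC with ALL (-0.53, FDR 0.00289). Its mean in EC was 38.2 FPM in Control and 24.6 FPM with ALL. Srebf1 fell in EC with HG + FFA (-0.56, FDR 0.00296) and with ALL (-0.54, FDR 0.00459), from a mean of 133 FPM in Control to 88.2 and 89.5 FPM. Acly, which makes cytosolic acetyl-CoA from citrate, rose instead, in EC with HG + FFA (0.26, FDR 0.00729) and with ALL, and in WT VSMC with ALL (0.45, FDR 0.00518). Cyb5b, a cytochrome b5, rose in EC with HG + FFA (0.28, FDR 0.00371) and ALL (0.30, FDR 0.00276) and in WT VSMC with ALL (0.32, FDR 0.00942). Me1, a source of NADPH, rose in EC with ALL (0.30, FDR 0.00302), Hsd17b12, the ketoreductase of the elongation cycle, in EC with HG + FFA (0.24, FDR 0.0482), and Srebf2 (0.54, FDR 0.00499) and Tecr (0.32, FDR 0.0165), the last reductase of the elongation cycle, in WT VSMC with ALL. Scd4 was called in WT VSMC with HG + FFA (-2.10, FDR 0.0103), but at a mean of 0.757 FPM in Control and 0.169 FPM with HG + FFA.

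Of 7 sterol synthesis genes, which are targets of SREBP-2, 3 rose in WT VSMC with ALL (7.45% of all genes were called). They were Sqle (0.89, FDR 0.000436), Fdps (1.11, FDR 0.0105) and Idi1 (1.06, FDR 0.0434). In KO VSMC and EC 0 of 7 were called with ALL (0.399% and 3.18% of all genes), 0 in both at an unadjusted p under 0.05 (10.5% and 16.2%). The list median was 0.48 in WT VSMC, and KO VSMC and EC had 0.23 and 0.11. The difference between EC and WT VSMC was called for Sqle (-0.83, FDR 0.00751), against 0.511% of all genes. Between WT VSMC and KO VSMC the effect of ALL was called as different for 0.0109% of all genes. A test that called so few genes cannot decide whether the sterol responses of these cell types differed. The calls in WT VSMC and their absence in KO VSMC do not show it either.

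Markers of cycling cells and of other cell types were also followed over the treatments. Of 5 cycling cell markers, 3 rose with HG + FFA and 4 with ALL in WT VSMC (0.538% and 7.45% of all genes were called). Their summed level in WT VSMC was 18.5 to 57.7 FPM in Control, 25.9 to 88.9 FPM with HG + FFA and 26.1 to 80.5 FPM with ALL. In KO VSMC and EC 0 of 5 were called with either, and with ALL 0 and 4 had an unadjusted p under 0.05 (10.5% and 16.2% of all genes). The difference from WT VSMC was called for 0 of 5 in both, and the summed level was higher with ALL than in Control in 8 of 9 EC sets (mean ratio 1.31). The sum of 3 mesothelial markers was higher with ALL in 4 of 4 WT VSMC, 3 of 3 KO VSMC and 9 of 9 EC sets (mean ratios 1.47, 1.70 and 1.82). In WT VSMC this sum was low, at 2.58 to 3.81 FPM in Control and 3.3 to 6.75 FPM with ALL. Of these markers Upk3b rose in KO VSMC and EC (0.399% and 3.18% of all genes were called) and no other was called. The sum of 8 smooth muscle markers in WT VSMC was higher with AII + NA in 4 of 4 sets (mean ratio 2.36) and with ALL in 3 of 4 (2.14). There 1 and 2 markers were called, against 0.0532% and 7.45% of all genes. With AII + NA this sum was higher in 4 of 4 KO VSMC sets (1.13) and in 0 of 8 EC sets (0.81). With ALL it was higher in 1 of 3 KO VSMC sets (0.95) and in 4 of 9 EC sets (1.02). The sum of 4 cardiomyocyte markers with ALL was higher in 3 of 4 WT VSMC sets (mean ratio 2.09). It was lower in 3 of 3 KO VSMC (0.43) and 8 of 9 EC sets (0.78). The sum of 5 fibroblast markers was lower with ALL in 3 of 4 WT VSMC, 3 of 3 KO VSMC and 8 of 9 EC sets (0.89, 0.82 and 0.90). That of 10 endothelial markers was lower in 3 of 4, 3 of 3 and 3 of 9 sets (0.79, 0.74 and 1.04). The part of these shifts in the results of the 10 genes was not tested.

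**Figure D5:**
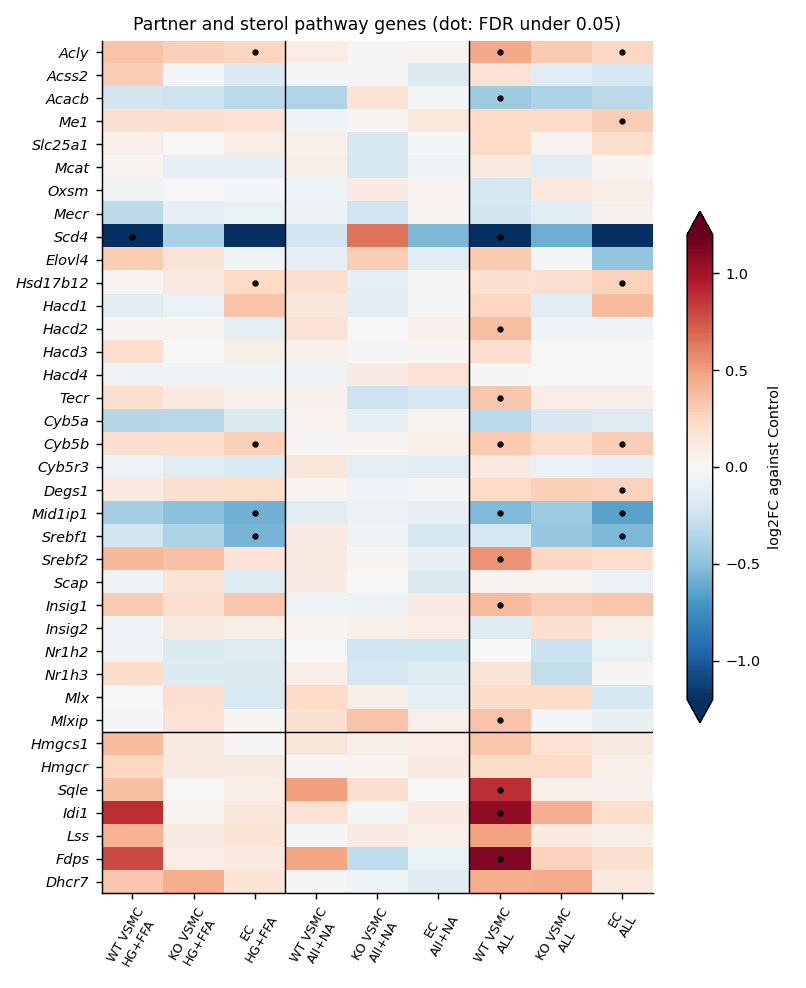
log2FC against Control (colour) of the 30 partner genes tested in all 3 cell types and 7 sterol genes (rows) by cell type and condition (columns); a dot marks an edgeR FDR under 0.05, and values beyond the scale take its end colours. Mid1ip1 and Srebf1 are blue and Acly and Cyb5b red with HG + FFA and ALL in each cell type, and Sqle, Idi1 and Fdps are darkest in WT VSMC with ALL.

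The fatty acid response was read from Angptl4, Pdk4, Cpt1a, Plin2 and Acot2, targets of the PPAR receptors that fatty acids activate. Of the 5, 1 rose in WT VSMC with HG + FFA and 4 each in KO VSMC and EC (0.538%, 0.439% and 3.53% of all genes were called), whereas with ALL 3, 4 and 4 rose (7.45%, 0.399% and 3.18%). With AII + NA 0 of 5 were called in each cell type, and 0 of 5 at an unadjusted p under 0.05. Angptl4 had a log2FC of 1.28 (FDR 0.0138) in WT VSMC with ALL, 2.13 (FDR 0.0151) in KO VSMC with HG + FFA and 3.22 (FDR 2.25e-08) in EC with HG + FFA.

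The genes whose pattern over libraries was most like that of a member were ranked by the correlation of log2 FPM after removal of the set means, averaged over the 3 cell types, among 15879 genes. The values share libraries and conditions and are given as a description. For Scd1 the closest were Scd2 (mean r = 0.88), Gramd1b (0.73), Acaca (0.72), Mturn (0.70) and Gxylt2 (0.70). For Fasn they were Dync1h1 (0.79), Ranbp10 (0.79), Slc41a1 (0.76), Ubr4 (0.76) and Pcnx3 (0.75), and Fads2 (0.56, rank 387) was the closest other member. Scd2 and Fads1 were added after their values had been seen. Acaca was the fifth closest gene to Scd2 (0.81). Fads2 was the second closest to Fads1 (0.88), beside Pdk4 (0.89), Cpt1a (0.87), Slc22a5 (0.87) and Slc25a42 (0.87), whereas the mean r of Fads1 was -0.52 with Scd2, negative in each cell type, and -0.34 with Scd1, where WT VSMC had -0.25, KO VSMC -0.84 and EC 0.08.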

How the data were processed

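Poly(A) RNA of 69 libraries was sequenced, and the authors deposited raw read counts per gene, 1 table for each of WT VSMC, KO VSMC and EC. According to the labels and methods, reads were mapped to mm39 with HISAT2 (2.1.0) and counted with featureCounts over exons, with multi-mapping reads included, which can add reads of near-identical copies. The strand setting is not given in the sources used here. Counts were analysed as deposited. FPM are counts per 1000000 of the TMM-scaled library size, with one TMM scale over all 69 libraries, and levels per length used the union of Ensembl exons.

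Differential expression was tested with edgeR (4.0.16, R 4.3.3; TMM, filterByExpr, quasi-likelihood test) in one model per cell type with condition and set as terms, and the Benjamini-Hochberg FDR was taken over 16905 (WT VSMC), 17538 (KO VSMC) and 17148 (EC) genes. The same test was fitted jointly for differences between cell types and, without the block, for the Control libraries. The set numbers are from the labels, and the methods describe sets as cultures of one origin. Deviations of libraries from their condition means correlated within sets (mean r 0.797, 0.78 and 0.819, lowest 0.494). The mean r between sets (-0.269, -0.28 and -0.0913) is lowered by the removal of the condition means and does not show that sets are unrelated. Sets are the replicates, and since some share an animal, p-values over sets can be too small. Libraries of a group differed by more than sampling noise (smallest chi-square per gene 41.6).

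The procedure was tested on simulated data. For HG + FFA against Control, of 200 genes changed by 0.5 on the log2 scale it recovered 83.5% in the WT VSMC libraries, 63% in KO VSMC and 91.5% in EC, in steps on 16796, 17259 and 16759 genes. Another 200 genes were changed by 0.75 in the same simulated data. In the real data 91 genes were called with HG + FFA in WT VSMC and 77 in KO VSMC, so the recovery there can be lower.

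Alternatives were DESeq2 (1.42.0), edgeR with the size factors of DESeq2, no count filter, no block, the animal as block, only the 2 groups compared, complete sets, each set left out, EC sets 15 and 16 left out because their animals also gave KO VSMC sets, the longest transcript as length, and the study's DEG rule (FDR under 0.05 in both tools, |log2FC| of at least 0.64, mean of at least 3 FPM in a group). Members, gene lists and tests were chosen with earlier results of these data known. All members were named, the up to 5 partner and sterol genes of smallest FDR in each comparison with Control, Angptl4 for the fatty acid response, and the 5 genes most like Fasn and Scd1. Some genes of the sterol and fatty acid response lists are not reported here, and the counts leave them out. Promoters are from RefSeq (GRCm39).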

Additional observations from a re-analysis of the deposited data

Results flagged for a closer look

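In 12 of 110 groups of 4 to 10 libraries, the highest or lowest library lay farther from its neighbour than Dixon's 95% limit allows, and chance gives about 1 in 20. EC set 11, 1 of the 3 sets of low Pecam1, accounted for 4 of them. Its Elovl1 was the highest with HG + FFA (158 FPM, next 84.7) and with ALL (145 FPM, next 89.6), and its Scd1 the lowest in Control (14 FPM, next 61.6) and with AII + NA (21.6 FPM, next 64.9). EC set 17 was the highest for Fads2 with HG + FFA (216 FPM, next 133) and for Scd2 with AII + NA (622 FPM, next 459), and EC set 15 for Fasn in Control (291 FPM, next 195).

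In WT VSMC, Elovl1 was 100 FPM in set 1 with HG + FFA (next 84.3) and 83.1 FPM in set 2 with AII + NA (next 92). Elovl6 was 14.3 FPM in set 2 with HG + FFA (next 11.5), and Scd1 was 34.1 FPM in set 4 with ALL (next 54.5), the set with the smallest Fads1 values. In KO VSMC, Fads3 was 76.5 FPM in set 8 with AII + NA (next 116). Of 60 differences between cell types in the response of a member, 0 were called by edgeR.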

How the results depend on the processing

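Without the set as a replicate block, 0 members were called in every stressor comparison, including those with 1 to 4 calls per cell type and the means over cell types with 4 and 6, so the calls rest on the pairing of libraries within sets. No log2FC called with the block changed its sign in any alternative. The study's DEG rule left 0 members in WT VSMC for ALL and for ALL against AII + NA. In KO VSMC it left 1 for HG + FFA, 1 for ALL and 2 for ALL against AII + NA, and in EC 1 for ALL and 1 for ALL against AII + NA. DESeq2 called 1 member for HG + FFA and 2 for ALL against AII + NA in WT VSMC, 4 for ALL in KO VSMC and 2 for HG + FFA in EC. With no count filter there were 3 for HG + FFA, 5 for ALL and 4 for ALL against AII + NA in WT VSMC, 4 for ALL in KO VSMC, 2 for HG + FFA in EC and 0 between Control libraries of EC and WT VSMC. With only the 2 groups compared, WT VSMC had 1 for ALL and 0 for ALL against AII + NA, KO VSMC 0 for HG + FFA and 0 for ALL, and EC 1 each for ALL and ALL against AII + NA. With the animal as block, EC had 1 for both. The share of all genes called was not taken for these alternatives or for the fits with sets left out. A change in these counts can therefore not be read as particular to the members. The causes were not tested.

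Leaving out 1 set gave 1 to 3 members for ALL and 0 to 1 for ALL against AII + NA in WT VSMC, 0 to 4, 0 to 3 and 0 to 4 for HG + FFA, ALL and ALL against AII + NA in KO VSMC, 1 to 3 for ALL in EC and 0 to 2 between Control libraries of EC and WT VSMC. In KO VSMC the counts of 0 were those without set 6 or 7. Without EC sets 9, 11 and 13, an alternative chosen after seeing the data like the mean over cell types, 1 member was called for ALL in EC, 3 between Control libraries of EC and WT VSMC, and 6 for HG + FFA in the mean over cell types. Over all alternatives, 349 counts of called members were within 1.5 times the reported count, 12 were higher and 46 lower. The 349 include comparisons with 0 members called in both fits, so they do not measure how stable the calls were. The low level of Elovl6 limits its precision.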
